A study of Rattus norvegicus with 18 samples.

Results

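The comparison described here is the late response of FRT/TSHR cells to thyroid-stimulating hormone (TSH), a rat thyroid line sampled after 17 h of hormone and without it. It rests on the 3 arrays labelled FRT/TSHR 17 h and the 3 arrays labelled FRT/TSHR basal, 6 of the 18 arrays in the series. The arrays were taken by label and not by any measured value. The comparison itself was chosen with earlier results of these data known. The series measured gene expression with 1-colour Affymetrix arrays in FRT/TSHR and FRTL5 cells at basal, 30 min and 17 h, with 3 biological replicates of each. FRT/TSHR 17 h cells had received bovine TSH at 1 U/L, and FRT/TSHR basal cells had received no treatment. FRT/TSHR 30 min cells, used as an earlier time, had the same dose. All were kept in Coon's modification of Ham's F12 medium, spent 12 h without serum and are described as de-differentiated thyrocytes. The name states that the line carries the TSH receptor, and the labels do not say how the receptor was introduced or whether the line is 1 clone. FRTL5 17 h cells, used here only to set the FRT/TSHR difference against another line, had received TSH at 0.1 U/L after 5 days in 5H medium without TSH and 12 h without serum, and FRTL5 basal cells were kept alike with no treatment. FRTL5 is labelled a differentiated line. Line, dose and medium therefore differed together and cannot be told apart. No untreated FRT/TSHR array at 17 h was analysed here, so TSH and 17 h of culture and handling cannot be told apart either. Each value is the authors' log2 expression of a probe set, on which a difference of 1 is a 2-fold difference.

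The TSH receptor is a G-protein coupled receptor of thyroid follicular cells that raises cyclic AMP. Cyclic AMP activates protein kinase A, which phosphorylates the transcription factor CREB. In differentiated thyrocytes TSH is known to raise iodide uptake, to support thyroid hormone synthesis and to drive growth over hours to days. FRT cells are a polarised epithelial line from rat thyroid that has lost most thyroid-specific functions. Heat shock proteins, which are described first below, are chaperones whose genes are switched on by heat shock factor when unfolded protein builds up.

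The thyroid label was checked against its defining markers, of which 6 of 7 were measured. The transcription factor gene Pax8 read 8.66 ± 0.13 at 17 h and 8.58 ± 0.06 at basal (log2, mean ± SD, n = 3 each), against 9.79 ± 0.31 in FRTL5 basal cells. Tg, which encodes thyroglobulin, read 4.20 ± 0.23 at 17 h and 4.17 ± 0.19 at basal in FRT/TSHR, against 11.21 ± 0.70 in FRTL5 basal cells. The epithelial markers stood the other way, with Epcam at 9.95 ± 0.14 at 17 h and 9.79 ± 0.12 at basal, against 3.61 ± 0.04 in FRTL5 basal cells. Krt8, a keratin of simple epithelia, read 10.54 ± 0.43 at 17 h and 10.58 ± 0.27 at basal, against 4.99 ± 0.12 in FRTL5 basal cells. Of the other thyrocyte markers, Foxe1 read 6.78 ± 0.29, Nkx2-1 5.98 ± 0.16 and Slc5a5 5.76 ± 0.14 at basal. In FRTL5 basal cells they read 8.67 ± 0.48, 7.22 ± 1.00 and 6.96 ± 0.21. Tshr, on its brightest probe set, read 6.60 ± 0.14, against 6.56 ± 0.19 in FRTL5 basal cells. Its other probe sets were lower, at 3.76 ± 0.13, 3.78 ± 0.18 and 3.33 ± 0.17. In FRTL5 basal cells those read 7.72 ± 0.42, 5.94 ± 0.11 and 4.14 ± 0.28. The other Nkx2-1 probe set read 4.13 ± 0.09, against 7.95 ± 0.29 in FRTL5 basal cells. The FRT/TSHR arrays thus carried Epcam, Krt8 and Pax8, with thyroglobulin far below its FRTL5 level. The mesenchymal marker Vim read 8.55 ± 0.10 at basal, against 7.93 ± 0.34 in FRTL5 basal cells. Cdh2 went the other way, at 4.76 ± 0.06 against 5.99 ± 0.02. Col1a1, Col3a1, Tagln and Acta2 read 6.55, 5.49, 4.77 and 5.48, against 6.50, 5.39, 4.63 and 5.04 in FRTL5 basal cells. The summed log2 level of the leukocyte markers (5 of 6 measured) was 26.00 to 27.08 at 17 h and 26.20 to 26.79 at basal, and that of the mesenchymal markers (6 of 6) was 34.77 to 36.22 at 17 h and 35.04 to 36.25 at basal. The corresponding sums were 20.62 to 21.27 at 17 h and 20.40 to 20.62 at basal for endothelial markers (4 of 5) and 10.17 to 10.64 at 17 h and 10.33 to 10.85 at basal for C cell markers (3 of 4).

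The 6 arrays had medians of 5.47 to 5.53 and correlated pairwise at 0.985 to 0.995 over all probe sets. Replicates of a group had a median SD per probe set of 0.152 at 17 h and 0.135 at basal. Signal at the 3' end of beta-actin minus that at its 5' end, a sign of RNA quality, was -0.02 to 0.13 at 17 h and -0.14 to 0.16 at basal. Arrays with the same replicate number deviated together from their group means, so for the main genes and lists the 3 numbered pairs are also described.

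After 17 h of TSH no probe set of FRT/TSHR cells passed the test. Of 8740 probe sets, 0 (0%) had an adjusted p under 0.05 (limma, Benjamini-Hochberg), and the lowest adjusted p was 1. An unadjusted p under 0.05 was reached by 108 probe sets (1.24%). With the replicate number as a block the count stayed at 0 (lowest adjusted p = 0.999), with 337 (3.86%) at an unadjusted p under 0.05. A paired fit of the 6 arrays alone also gave 0 (lowest adjusted p = 0.931), with 306 (3.5%) at an unadjusted p under 0.05. The precision can be read from the intervals: the median half-width of a 95% interval was 0.311 on the log2 scale, and for 8487 probe sets (97.1%) the whole interval lay within 2-fold either way. These intervals are not adjusted for the number of probe sets. The values below are therefore a description of 6 arrays, and no single gene is called. In RNA from whole cultures, a difference in fewer cells and a smaller difference in every cell cannot be told apart.

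The differences were small as well as uncalled. The median absolute difference was 0.0776 and the 99th percentile was 0.430. At least 1.5-fold higher values at 17 h were found for 9 probe sets and at least 1.5-fold lower ones for 18, and 1 probe set reached 2-fold. In FRTL5 cells the same fit gave a median absolute difference of 0.119, a 99th percentile of 1.08, 248 probe sets at least 1.5-fold higher, 280 at least 1.5-fold lower and 126 past 2-fold, and 311 passed. Over the 4736 named genes, each represented by its brightest probe set, the FRT/TSHR difference was above 0 for 52.6% and had a median of 0.0078.

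**Figure D1:**
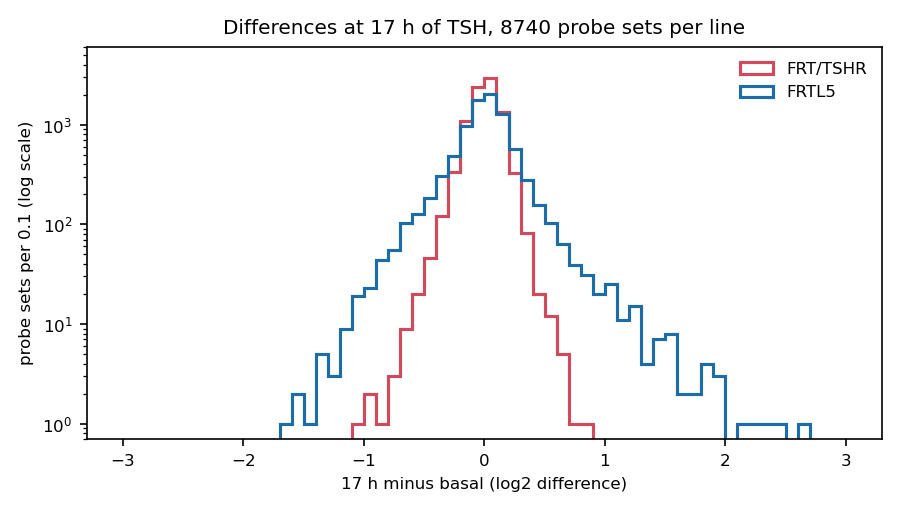
Number of probe sets (vertical, log scale) by their 17 h minus basal log2 difference (horizontal, in steps of 0.1) in FRT/TSHR (red) and FRTL5 (blue) cells. The FRT/TSHR differences lie between -1.08 and 0.90, while 126 FRTL5 probe sets are past 2-fold.

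Among genes whose 17 h arrays all lay above or all below the basal arrays, the 2 largest positive moderated t values were those of chaperones. Hsph1, a heat shock protein of the HSP110 family that acts with HSP70, read 9.25, 9.02 and 9.40 on the 17 h arrays of replicates 1, 2 and 3, against 9.01, 8.60 and 8.54 on the basal arrays. Every 17 h array was above every basal array, and the 3 pairs differed by 0.24, 0.42 and 0.86. The difference was 0.51 ± 0.15 (limma SE), a 1.42-fold ratio with a 95% interval of 1.14 to 1.78 (unadjusted p = 0.0042, adjusted p = 1, limma). Its other probe set, with 6.61, 5.59 and 6.27 at 17 h against 6.30, 5.08 and 5.54 at basal, had a difference of 0.51 ± 0.37 and groups that overlapped.

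Dnajb1, an HSP40 co-chaperone that delivers unfolded proteins to HSP70, read 8.99, 8.74 and 8.87 at 17 h, against 8.65, 8.50 and 8.37 at basal. Its groups did not overlap either, and its difference was 0.36 ± 0.12 (1.28-fold, unadjusted p = 0.0086, adjusted p = 1, limma). A second Dnajb1 probe set had a difference of 0.33 ± 0.17 with all 3 pairs higher. Hspb1, a small heat shock protein, read 11.96, 11.78 and 11.83 at 17 h, against 11.57, 11.52 and 11.49 at basal. Its difference was 0.33 ± 0.19 (unadjusted p = 0.108, limma). The SD was 0.09 at 17 h and 0.04 at basal, and the limma error also took in the spread of the other groups in the fit. All 4 Hspb1 probe sets had 17 h arrays that lay above the basal arrays, with differences of 0.28, 0.33, 0.38 and 0.45. These 3 genes stood at 8.71, 8.68 and 11.48 on average after 30 min of TSH, against 8.72, 8.51 and 11.53 at basal.

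**Figure D2:**
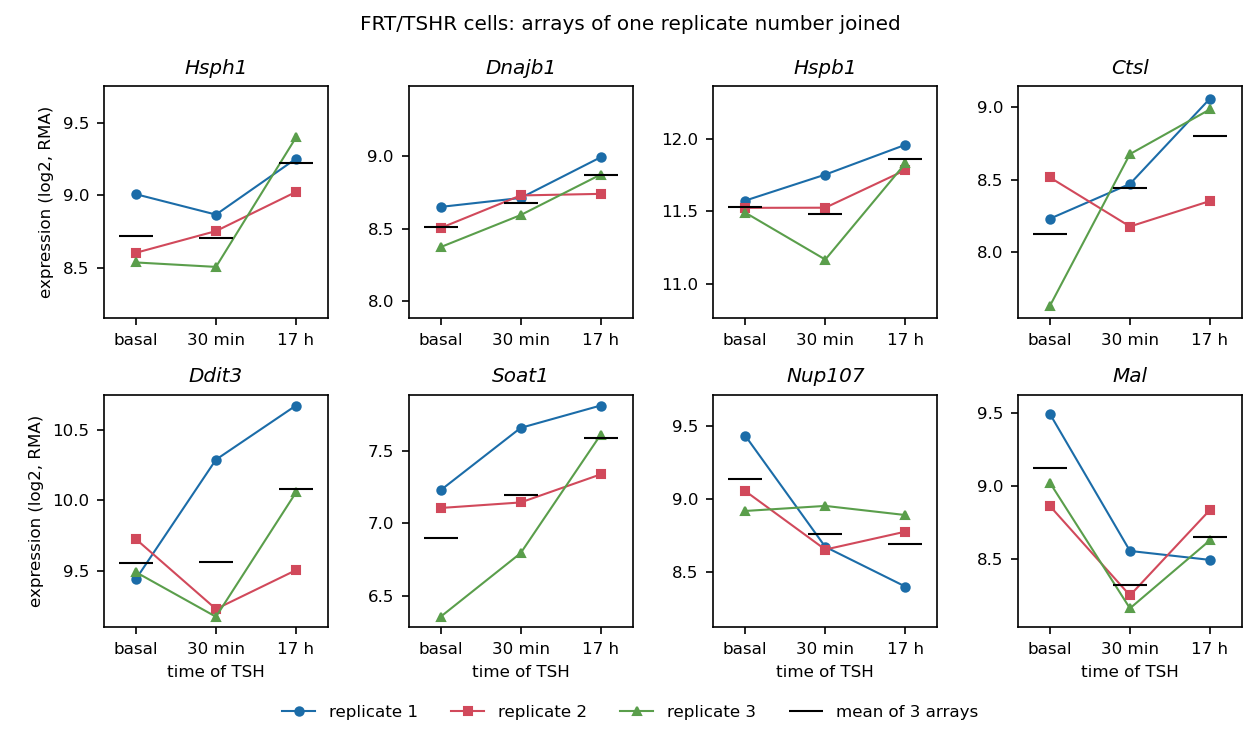
Log2 expression (vertical) of 8 genes in FRT/TSHR cells at basal, 30 min and 17 h of TSH, with arrays of 1 replicate number joined and black bars for the mean of 3 arrays. Hsph1, Dnajb1, Hspb1 and Soat1 have 17 h arrays above all basal arrays, Nup107 and Mal have them below, and Ctsl and Ddit3 overlap because replicate 2 is lower at 17 h.

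The promoters of the 3 chaperone genes are shown with that of Ctsl, the gene with a larger difference and less even replicates, because heat shock genes share a known promoter element. The sequences run from 250 bases before to 50 bases after the annotated start, 5' to 3' on the gene's strand, from RefSeq on the GRCr8 build: Hsph1 at chr12:10427118-10427417 (plus strand), Dnajb1 at chr19:41431092-41431391 (minus strand), Hspb1 at chr12:26432252-26432551 (minus strand) and Ctsl at chr17:769854-770153 (plus strand). Capitals mark pairs of the heat shock factor recognition unit, head to head (GAANNTTC) or tail to tail (TTCNNGAA).
Hsph1: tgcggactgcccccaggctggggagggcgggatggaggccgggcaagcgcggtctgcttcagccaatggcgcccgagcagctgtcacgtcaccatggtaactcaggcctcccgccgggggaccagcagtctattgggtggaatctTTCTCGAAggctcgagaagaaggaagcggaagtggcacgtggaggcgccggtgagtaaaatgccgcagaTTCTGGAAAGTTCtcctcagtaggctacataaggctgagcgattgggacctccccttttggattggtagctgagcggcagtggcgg
Dnajb1: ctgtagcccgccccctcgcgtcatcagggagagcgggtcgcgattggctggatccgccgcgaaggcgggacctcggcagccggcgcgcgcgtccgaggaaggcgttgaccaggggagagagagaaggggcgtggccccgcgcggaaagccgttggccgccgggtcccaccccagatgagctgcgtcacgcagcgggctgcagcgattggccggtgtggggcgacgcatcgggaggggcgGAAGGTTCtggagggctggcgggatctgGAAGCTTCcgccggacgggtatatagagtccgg
Hspb1: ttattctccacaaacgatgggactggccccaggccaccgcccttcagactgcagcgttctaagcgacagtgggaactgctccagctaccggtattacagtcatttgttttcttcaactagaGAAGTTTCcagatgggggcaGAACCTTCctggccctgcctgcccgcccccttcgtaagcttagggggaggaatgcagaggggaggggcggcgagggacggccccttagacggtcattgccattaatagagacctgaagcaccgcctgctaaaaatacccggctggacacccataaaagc
Ctsl: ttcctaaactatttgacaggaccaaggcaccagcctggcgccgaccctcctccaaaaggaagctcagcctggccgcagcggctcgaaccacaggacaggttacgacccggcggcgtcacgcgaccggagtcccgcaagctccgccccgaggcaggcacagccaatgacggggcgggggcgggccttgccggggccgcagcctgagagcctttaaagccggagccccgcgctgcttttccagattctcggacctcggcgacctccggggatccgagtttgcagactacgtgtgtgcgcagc
Hsph1 held 3 matches, of which 1 was head to head and 2 were tail to tail, and the pair nearest the start overlap each other. Dnajb1 and Hspb1 held 2 head to head matches each, and Ctsl held none. The promoter of Soat1, a gene described below whose groups did not overlap, was also searched and held none. Both letter patterns are palindromes and were searched over the same windows of all 33469 promoters, where 8.59% held the head to head and 8.77% the tail to tail form. The full cyclic AMP response element TGACGTCA, found in 1.83% of promoters on either strand, was in none of the 4 promoters shown. Its shorter core TGACG, found on either strand in 21.2% of promoters, occurred once in Hsph1, at 2 places each in Dnajb1 and Ctsl, and not in Hspb1. A match describes letters and not binding. The element is known in heat shock genes, so its presence was given beforehand and is no result of this comparison.

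Of the 29 heat shock proteins and co-chaperones measured, 22 had a higher value at 17 h and 7 a lower one, with a median difference of 0.07 against 0.0078 over all genes. None passed the test. All 3 pairs were higher for 9 of them (31%), against 12.3% of all genes, and all 3 lower for 2, against 11.4% of all genes. The 17 h arrays lay above the basal arrays for 4 members, Hsph1, Dnajb1, Hspb1 and Hspb2, against 2.6% of all genes. They lay below for 1, Dnajb5, against 2.53% of all genes. The list holds the 2 chaperones chosen with earlier results of these data known, so its direction is not independent of them. Among members whose groups overlapped, the mitochondrial chaperone Hspa9 had a difference of 0.41 ± 0.31, the collagen chaperone Serpinh1 0.28 ± 0.25, the co-chaperone Dnaja1 0.26 ± 0.16 and the abundant chaperone Hsp90ab1 0.20 ± 0.19. Hspa1a, the stress-inducible HSP70, differed by 0.06 ± 0.17, and Hsf1, the heat shock factor itself, by 0.06 ± 0.12. The list's median was 0.11, 0.06 and 0.13 in pairs 1, 2 and 3, against 0.0436, -0.00356 and -0.0129 over all genes. In these pairs 18, 18 and 23 of the 29 were higher, against 57.7%, 49.3% and 46.7% of all genes. In pair 1 the list was thus near the share of all genes.

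The chaperones of the endoplasmic reticulum differed more between the pairs. Of 17 members 12 were higher at 17 h, and the median of 0.15 was above that of the heat shock list. No member was higher in all 3 pairs, and none was lower in all 3. In pair 1, 13 of 17 were higher, in pair 2 all 17 were lower, and in pair 3, 15 were higher, with pair medians of 0.19, -0.22 and 0.31. Hspa5, the main chaperone of this compartment, read 9.71, 8.77 and 9.81 at 17 h, against 8.62, 9.29 and 9.41 at basal. Ddit3, the transcription factor CHOP of the unfolded protein response, read 10.67, 9.51 and 10.06 at 17 h, against 9.44, 9.73 and 9.49 at basal, a difference of 0.52 ± 0.29 that was 0.17 without both arrays numbered 1. For both genes replicate 2 stood against the other replicates, and the other Hspa5 probe sets differed by 0.59 ± 0.47 and -0.02 ± 0.16. Dnajb9, a co-chaperone that stands on both chaperone lists, differed by 0.45 ± 0.30.

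Ctsl, the lysosomal protease cathepsin L, had one of the largest positive differences but not an even one. It read 9.06, 8.35 and 8.98 at 17 h, against 8.23, 8.52 and 7.63 at basal. Replicate 2 was lower at 17 h, the groups overlapped, and the difference was 0.67 ± 0.23 (1.59-fold, unadjusted p = 0.011, adjusted p = 1, limma). The other Ctsl probe set differed by 0.10 ± 0.14 and was higher in 1 of 3 pairs. After 30 min of TSH the 3 arrays read 8.47, 8.18 and 8.68. Ctsb, cathepsin B, had 9.36, 8.89 and 9.26 at 17 h, against 8.88, 9.05 and 8.77 at basal, a difference of 0.27 ± 0.18 with the same replicate on the other side. Of 27 cathepsins and lysosomal proteins 18 were higher and 9 lower at 17 h (median 0.06). All 3 pairs were higher for 1 member, against 12.3% of all genes, and lower for 1, against 11.4%. These were the lipase gene Lipa (0.19 ± 0.23) and the proton pump subunit gene Atp6v1a (-0.15 ± 0.23). Both had other probe sets on the other side of 0, at -0.06 for Lipa and 0.07 for Atp6v1a.

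Other genes with 17 h arrays above all basal arrays were spread over functions. Soat1, which esterifies cholesterol for storage, read 7.81, 7.34 and 7.61 at 17 h, against 7.23, 7.11 and 6.35 at basal, a difference of 0.69 ± 0.26 (1.62-fold). Its unadjusted p was 0.0188, or 0.000695 in the blocked fit of limma, where its adjusted p was 0.999. Wasl, which activates actin assembly, differed by 0.36 ± 0.13, but its other probe set differed by -0.01 with groups that overlapped. Cd47, a cell surface signal against phagocytosis, differed by 0.39 ± 0.15, Stx3, a syntaxin of apical membrane fusion, by 0.38 ± 0.15, and Mapkapk3, a kinase downstream of p38, by 0.31 ± 0.13. The remaining genes in the upper 12 of the ranking were Kdr (0.38), Scn8a (0.25), Ecel1 (0.23), Nxph3 (0.23) and Ms4a2 (0.20), with mean levels under 5.5 at 17 h and at basal. The other probe sets of Ms4a2 stood on both sides of 0, at 0.08 and -0.04. Kdr is an endothelial marker and read 3.90 ± 0.20 at 17 h and 3.52 ± 0.16 at basal. Gas5, a growth-arrest RNA named after its values were seen, had the largest positive difference of any probe set, 0.90 ± 0.63, with 7.86, 5.00 and 6.60 at 17 h against 5.10, 5.07 and 6.61 at basal, so 1 array carried it.

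At the lower end, the gene with the largest negative moderated t was Nup107, a scaffold protein of the nuclear pore. It read 8.40, 8.78 and 8.89 at 17 h, against 9.44, 9.06 and 8.92 at basal, a difference of -0.45 ± 0.14 (unadjusted p = 0.006, adjusted p = 1, limma). The pairs differed by -1.04, -0.28 and -0.03, so the size of the difference came mainly from replicate 1. Mal, a proteolipid of apical membrane traffic in epithelia, read 8.49, 8.84 and 8.63 at 17 h, against 9.50, 8.86 and 9.02 at basal (-0.48 ± 0.17), and had averaged 8.32 after 30 min of TSH. Ripk3, a kinase of necroptosis, differed by -0.39 ± 0.14, Nudt1, which clears oxidised nucleotides, by -0.37 ± 0.14, Serinc5 by -0.45 ± 0.20 and Iqgap2 by -0.47 ± 0.21. Plk1, a kinase of mitotic entry, read 7.83, 8.07 and 8.10 at 17 h, against 8.52, 8.16 and 8.20 at basal (-0.29 ± 0.12). In Nup107, Mal, Ripk3, Nudt1, Serinc5 and Plk1, among others, the highest basal array was that of replicate 1. The margin was small in Nudt1, whose basal arrays read 6.05, 5.98 and 6.03.

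Genes of DNA replication had mostly lower values at 17 h, but the replicates did not share this. Of 18 members 16 were lower, with a median of -0.33, and none passed. In pair 1 all 18 were lower (median -1.01), in pair 2, 12 were lower (median -0.07), and in pair 3, 15 were higher (median 0.09). Mcm6, a subunit of the replicative helicase, read 6.18, 8.60 and 9.14 at 17 h, against 8.89, 8.88 and 9.0 at basal. The 3 basal arrays were alike, and the array of replicate 1 alone was low at 17 h. After 30 min the Mcm6 arrays read 7.26, 8.42 and 8.75, so replicate 1 was the lowest there too. The helicase subunit gene Mcm5 differed by -0.67 ± 0.38, the sliding clamp gene Pcna by -0.50 ± 0.41, the primase gene Prim1 by -0.35 ± 0.19 and the thymidylate synthase gene Tyms by -0.27 ± 0.14. Mcm6 had a difference of -0.95 ± 0.52, or -0.07 without both arrays numbered 1. Without those 2 arrays the median of the list was 0.03.

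Mitosis genes leaned the same way, in pair 2 as well. Of 15 members 14 were lower at 17 h (median -0.36), 13, 15 and 6 were lower in pairs 1, 2 and 3, and the pair medians were -0.77, -0.24 and 0.08. All 3 pairs were lower for 5 members (33.3%), against 11.4% of all genes, and the 17 h arrays lay below the basal arrays for Plk1, Ccnb1 and Kifc1, 3 of 15 against 2.53% of all genes. Cdk1, the main mitotic kinase, read 6.56, 6.89 and 7.52 at 17 h, against 8.0, 7.14 and 7.44 at basal (-0.53 ± 0.26). Racgap1, which acts in cytokinesis, read 7.32, 7.78 and 8.56 at 17 h, against 8.90, 8.29 and 8.35 at basal (-0.63 ± 0.29). In both genes replicate 1 had the highest basal and the lowest 17 h array, and replicate 3 was higher at 17 h. The cyclin B gene Ccnb1 differed by -0.40 ± 0.28 and the kinesin gene Kifc1 by -0.42 ± 0.21. Without both arrays numbered 1 the median of the list was -0.09, Cdk1 differed by -0.08 and Racgap1 by -0.15. Asf1b, a histone chaperone of replicating chromatin named after its values were seen, had the lowest difference of all probe sets, -1.08 ± 0.48, with 5.83, 7.26 and 8.25 at 17 h against 8.57, 7.96 and 8.07 at basal.

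**Figure D3:**
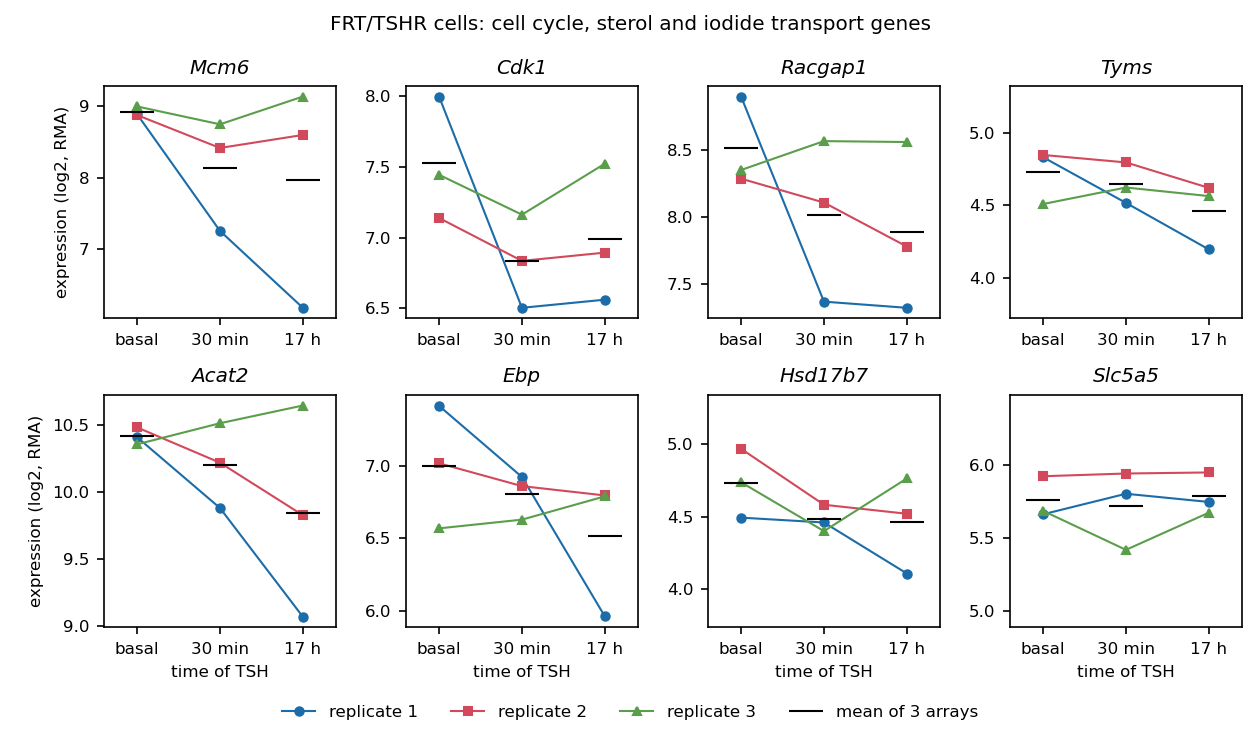
Log2 expression (vertical) of cell cycle, sterol and iodide transport genes in FRT/TSHR cells at basal, 30 min and 17 h of TSH, with arrays of 1 replicate number joined and black bars for the mean of 3 arrays. In Mcm6, Cdk1, Racgap1, Acat2 and Ebp the 17 h array of replicate 1 is the lowest of the 3 at 17 h and that of replicate 3 is above its basal array, while Slc5a5 lies between 5.42 and 5.95 on all 9 arrays.

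The cyclins and inhibitors of the G1 phase showed no such lean, with 8 of 16 higher and a median of -0.0018. Cdkn1a, the CDK inhibitor p21, read 8.18, 8.67 and 8.85 at 17 h, against 8.15, 8.51 and 8.60 at basal, a difference of 0.15 ± 0.19 with all 3 pairs higher. Cdk2 differed by -0.16 ± 0.20 and Rb1 by -0.15 ± 0.15, while the other Rb1 probe set differed by 0.13 ± 0.12.

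The cholesterol synthesis enzymes were lower at 17 h for 15 of 17 members, with a median of -0.25. The pair medians were -0.38, -0.24 and 0.06, and all 3 pairs were lower for 5 members (29.4%), against 11.4% of all genes. Acat2, which starts the pathway from acetyl-CoA, read 9.07, 9.83 and 10.64 at 17 h, against 10.41, 10.48 and 10.35 at basal (-0.57 ± 0.29). Its basal arrays were alike, and the 17 h arrays spread to both sides of them. Ebp, a sterol isomerase, differed by -0.48 ± 0.23, and by -0.00062 without both arrays numbered 1. The mevalonate kinase gene Mvk differed by -0.38 ± 0.26, Fdps, which makes farnesyl diphosphate, by -0.27 ± 0.19, and Dhcr7, which catalyses the last step, by -0.26 ± 0.28, each with all 3 pairs lower. Msmo1 (0.09 ± 0.31) and Cyp51 (0.02 ± 0.26) were the members above 0. Soat1, the esterifying enzyme described above, stood on the other side of 0.

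**Figure D4:**
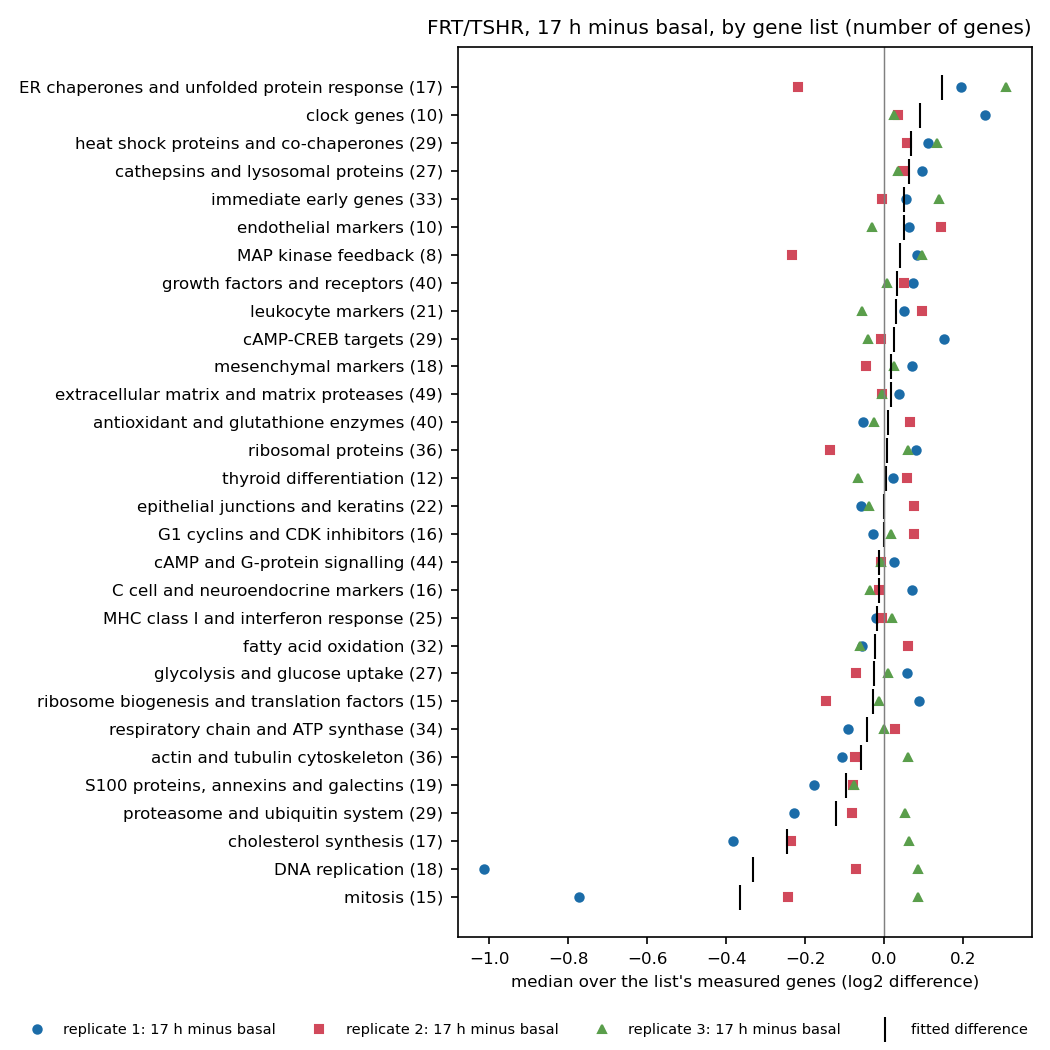
Median 17 h minus basal log2 difference (horizontal) over the measured genes of 30 lists (vertical) in FRT/TSHR cells, as the fitted difference (black bar) and within each pair of same-numbered arrays (symbols). The DNA replication and mitosis medians run from -1.01 and -0.77 in pair 1 to 0.09 and 0.08 in pair 3, while the heat shock medians are 0.11, 0.06 and 0.13.

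The thyroid genes that TSH is known to drive had differences near 0. Slc5a5, the sodium iodide symporter, read 5.75, 5.95 and 5.68 at 17 h, against 5.66, 5.93 and 5.69 at basal, with an SD of 0.14 in both groups. Its difference was 0.03 ± 0.18 with a 95% interval of -0.35 to 0.42. Tshr, the receptor that the line was named for, read 6.90, 6.90 and 6.35 at 17 h, against 6.47, 6.75 and 6.57 at basal (0.12 ± 0.15). Its 3 other probe sets differed by 0.03, -0.05 and -0.08, and on 1 of them the mean was 3.71 at 17 h and 3.76 at basal, against 7.72 in FRTL5 basal cells. The labels do not say which probe sets see a transgene. Pax8 differed by 0.08 ± 0.23, Foxe1 by 0.07 ± 0.34, Nkx2-1 by -0.09 ± 0.50 and Tg by 0.04 ± 0.37. All these errors, like every limma error and p-value of the main fit, take in the spread of the FRTL5 arrays, which shared the fit. Pax8, for example, had an SD of 0.13 at 17 h and 0.06 at basal in FRT/TSHR cells, against 0.31 in FRTL5 basal cells. Of 12 thyroid differentiation genes 6 were higher and 6 lower (median 0.0051), and only the potassium channel gene Kcnj15 was on 1 side of 0 in all pairs, with 5.82, 5.93 and 5.56 at 17 h against 5.83, 5.97 and 5.73 at basal.

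The genes of the cyclic AMP pathway were also near 0. Of 29 CREB targets 17 were higher (median 0.02), and all 3 pairs were higher for 5 (17.2%), against 12.3% of all genes. The 17 h arrays lay above the basal arrays for 4 of them, against 2.6% of all genes. These were Nr4a2, an orphan nuclear receptor (0.25 ± 0.13), Ptgs2, the inducible cyclooxygenase (0.22 ± 0.10), Pck1 (0.18 ± 0.12) and Pde4d, a cyclic AMP phosphodiesterase (0.12 ± 0.11). Ptgs2 read 5.04, 5.09 and 5.11 at 17 h, against 4.83, 4.83 and 4.91 at basal, so every 17 h array was above every basal array. These groups depended on the probe set. The other Nr4a2 probe set differed by -0.15 ± 0.18 with 1 of 3 pairs higher, the other Ptgs2 probe set by 0.06 ± 0.13 and the other Pde4d probe set by 0.02, each with groups that overlapped. Crem, a cyclic AMP inducible repressor, differed by 0.11 ± 0.18 and Nr4a1 by 0.10 ± 0.33. Of 44 components of cyclic AMP and G-protein signalling 20 were higher and 24 lower (median -0.01). All 3 pairs were higher for 7 and lower for 7, against 12.3% and 11.4% of all genes. The list included the regulator Rgs4 (0.20 ± 0.14), Creb1 itself (0.19 ± 0.14) and the anchoring protein gene Akap8 (-0.15 ± 0.11). Of 33 immediate early genes 20 were higher (median 0.05), with Fos at -0.03 ± 0.46 (0.01 and -0.01 on its other probe sets) and Egr1 at -0.17 ± 0.58. Of 8 genes of MAP kinase feedback 5 were higher, and pair 2 had 7 of 8 lower (median -0.23), with Dusp6 at -0.27 ± 0.29 and Spry1 at -0.14 ± 0.19.

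Protein turnover genes had mostly lower values. Of 29 genes of the proteasome and ubiquitin system 23 were lower at 17 h (median -0.12), with pair medians of -0.23, -0.08 and 0.05. All 3 pairs were lower for 6 (20.7%), against 11.4% of all genes, and higher for 3, against 12.3%. Psmb5, a catalytic subunit, read 8.81, 9.52 and 9.63 at 17 h, against 9.53, 9.78 and 9.65 at basal (-0.33 ± 0.18). Psme2, a subunit of the interferon-inducible activator, read 7.80, 7.98 and 7.60 at 17 h, against 8.18, 8.08 and 7.96 at basal (-0.28 ± 0.12).

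The surface and cytoskeleton lists were mixed. Of 36 actin and tubulin cytoskeleton genes 9 were lower in all 3 pairs (25%), against 11.4% of all genes, and 1 higher. They included the microtubule destabiliser gene Stmn1, also on the mitosis list (-0.35 ± 0.19), and the tropomyosin gene Tpm3 (-0.30 ± 0.19). The 4 other Tpm3 probe sets ran from -0.39 to 0.13. Tpm2, with 4.18, 4.22 and 4.17 at 17 h against 4.04, 3.91 and 3.96 at basal, lay above throughout. Of 19 S100 proteins, annexins and galectins 17 were lower (median -0.10). All 3 pairs were lower for 3, among them Anxa6 (-0.27 ± 0.16), against 11.4% of all genes. Of 22 epithelial genes 11 were higher and 11 lower, with the mucin gene Muc1 at -0.41 ± 0.20 and the keratin gene Krt18 at -0.39 ± 0.20. Of 49 genes of extracellular matrix, its receptors and proteases 28 were higher. The integrin gene Itgb4 read 9.05, 9.28 and 9.30 at 17 h, against 8.71, 9.24 and 8.34 at basal (0.45 ± 0.19), and overlapped through 1 basal array. The collagen gene Col1a2 read 4.74, 4.48 and 4.29 at 17 h, against 4.87, 4.77 and 4.76 at basal.

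Against the 30 min arrays, 17 h of TSH also gave 0 probe sets in limma, with 179 at an unadjusted p under 0.05, and 0 in the blocked fit (lowest adjusted p = 0.675). Without the 30 min array of replicate 1 the count was 8. Hsph1 stood 0.52 ± 0.15 above its 30 min level at 17 h, much as above basal, whereas Dnajb1 stood 0.19 ± 0.12 above its 30 min level.

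The FRT/TSHR difference at 17 h was then tested against the FRTL5 difference, since a call in 1 line and none in the other does not show that the lines differ. This test passed for 69 probe sets (0.789%) in limma, after Benjamini-Hochberg adjustment, 27 with a FRT/TSHR difference above that of FRTL5 and 42 below. By their representative probe sets these were 41 genes, 16 above and 25 below. Their FRT/TSHR differences lay between -0.57 and 0.51 with a median size of 0.198, against a median size of 1.07 in FRTL5. For 37 of the 41 the lines stood on opposite sides of 0. The genes were selected for a large difference between the lines, which in itself favours opposite sides and a large FRTL5 size. None of their FRT/TSHR differences passed. Slc5a5 differed by 0.03 ± 0.18 in FRT/TSHR cells and by 2.62 ± 0.18 in FRTL5 cells, a difference of -2.58 ± 0.26 between the lines (adjusted p = 0.000298). The count depended on single arrays of both lines. Among FRT/TSHR arrays it was 33 without 17 h replicate 1, 35 without 17 h replicate 2, 37 without basal replicate 3 and 42 without basal replicate 1. Among FRTL5 arrays it was 34 without 17 h replicate 2, 39 without 17 h replicate 3 and 40 without basal replicate 3. It was 18 without both FRT/TSHR arrays numbered 1, and 365 with the replicate block.

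Cholesterol synthesis held 5 of the genes below FRTL5, of 17 measured, where 0.528% of all representative genes were called in that direction. The DNA replication list held 2 of 18 and the mitosis list 3 of 15. Acat2 differed by -0.57 ± 0.29 in FRT/TSHR and 2.26 ± 0.29 in FRTL5 cells (adjusted p of the line difference = 0.00402), and Hsd17b7, a sterol reductase, by -0.27 ± 0.17 in FRT/TSHR and 1.23 ± 0.17 in FRTL5 cells (adjusted p = 0.00746). The others, Fdps, Cyp51 and Mvd, were at -0.27, 0.02 and -0.32 in FRT/TSHR and at 1.99, 2.30 and 1.34 in FRTL5 cells. The cell cycle genes Cdk1, Top2a, Tubb5, Tyms and Prim1 were at -0.53, -0.42, -0.34, -0.27 and -0.35 in FRT/TSHR and at 1.26, 1.08, 1.48, 0.94 and 1.07 in FRTL5 cells. Other probe sets of Top2a, Tubb5 and Prim1 did not pass, with an adjusted p of 0.159 and 0.184 for Top2a, 0.0656 for Tubb5 and 0.216 for Prim1. Among the genes above FRTL5 were Mxi1, an antagonist of Myc, at 0.27 ± 0.12 in FRT/TSHR and -0.64 ± 0.12 in FRTL5 cells, and the clock output gene Dbp, at 0.01 ± 0.12 in FRT/TSHR and -0.96 ± 0.12 in FRTL5 cells. The other probe sets of Mxi1 (adjusted p = 0.702) and Dbp (adjusted p = 0.285) did not pass in limma. The chaperones did not pass this test without the replicate block. Hsph1 differed by 0.51 ± 0.15 in FRT/TSHR and 0.25 ± 0.15 in FRTL5 cells (adjusted p = 0.965, limma). Dnajb1 differed by 0.36 ± 0.12 in FRT/TSHR and 0.10 ± 0.12 in FRTL5 cells (adjusted p = 0.890). Hspb1 differed by 0.33 ± 0.19 in FRT/TSHR and -0.39 ± 0.19 in FRTL5 cells (adjusted p = 0.379). Its other probe sets differed between the lines by 1.09 ± 0.25, 0.82 ± 0.27 and -0.26 ± 0.34. Their adjusted p in limma was 0.0553, 0.235 and 0.998, or 0.0102, 0.0117 and 0.688 with the replicate block. Ctsl, at 0.67 ± 0.23 in FRT/TSHR and -0.56 ± 0.23 in FRTL5 cells, had an adjusted p of 0.108. The other Ctsl probe set passed, with a difference of 0.89 ± 0.20 between the lines (adjusted p = 0.0492, or 0.019 with the replicate block, limma). Other probe sets also passed for Pcna (adjusted p = 0.0174), Msmo1 (0.0208) and Psmb5 (0.0119 and 0.0404), where the brightest had 0.0937 for Pcna, 0.520 for Msmo1 and 0.0586 for Psmb5.

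**Figure D5:**
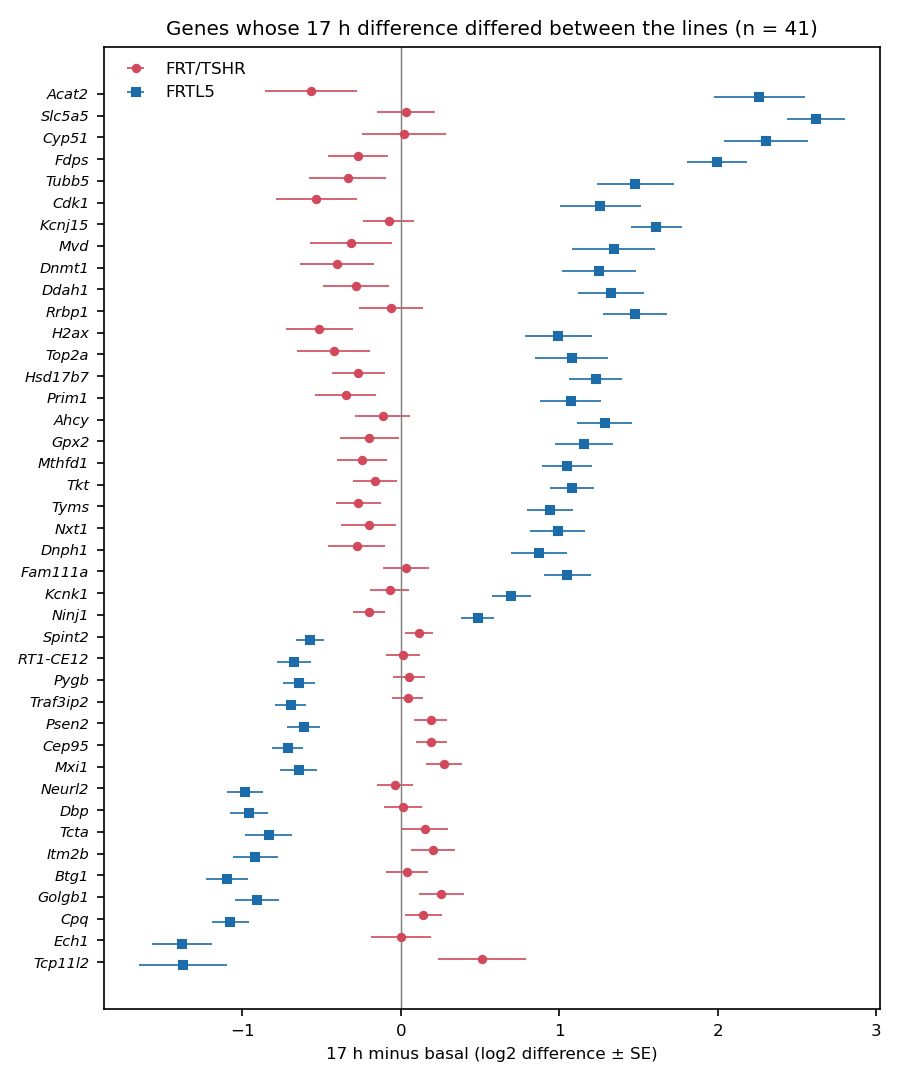
17 h minus basal log2 difference ± SE (horizontal) of the 41 genes whose difference passed the test between the lines (vertical), in FRT/TSHR (red circles) and FRTL5 (blue squares) cells. The FRT/TSHR points lie between -0.57 and 0.51, and 37 genes have the 2 lines on opposite sides of 0. Selection on the line difference itself favours opposite sides.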

How the data were processed

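Biotin-labelled cRNA was made from 10 µg of total RNA of each sample, per the labels' protocols. The deposited values are log2 expression per probe set, which the authors made with RMA, per the submitters' processing notes. Its version and settings are not given in the sources used here. Scanner files were not used here, so background correction and detection above background were not varied. Of 8799 probe sets 59 controls were removed, and no filter on signal was set for the other 8740. GEO's platform annotation gave 1 gene symbol to 7006, several to 308 and none to 1426. Symbols of 6985 were matched to the GRCr8 gene table, and 0 needed updating. For each of 4736 genes, the brightest probe set over all 18 arrays stood for the gene. Of 1565 genes with several probe sets, all stood on 1 side of 0 for 948 (60.6%).

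The mean of each group was fitted over all 18 arrays in limma 3.58.1 (lmFit, eBayes, R 4.3.3), which left 12 residual degrees of freedom and a prior of 3.597. All tests were two-sided, with Benjamini-Hochberg adjustment over 8740 probe sets and a threshold of 0.05. Group values are mean ± SD of 3 arrays, errors of differences are limma SE, and precision is limited by the number of arrays. The fit was tested on simulated data with independent noise on each array and no replicate effect, unlike the arrays themselves. Over all probe sets, deviations from the group means correlated at 0.434, 0.489 and 0.351 between FRT/TSHR 17 h and basal arrays of the same number, and at -0.131 at most between other numbers. The deviations of a group's arrays cancel out, so positive values at the same number bring lower ones between other numbers. The low values between other numbers are thus no separate support for pairing. Correlations of every same-numbered pair in both lines were over 0.1, so the numbers were taken as pairs. A replicate block was fitted as the alternative. FRTL5 arrays were less clearly paired, since other numbers correlated at up to 0.42 between 17 h and basal. Their same-numbered arrays correlated at 0.69, 0.392 and 0.409. Between FRTL5 17 h and 30 min the same numbers gave 0.698, 0.233 and 0.148, and other numbers up to 0.628. What a replicate number stands for is not stated.

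The comparison, the genes Ctsl, Hsph1 and Dnajb1, the 30 gene lists and the tests were chosen with earlier results of these data known. Genes were named as the 12 largest positive and 12 largest negative moderated t values with groups that did not overlap, the 3 smallest p of every list, and a set of thyroid and early genes. Other genes are list members or members of the line difference shown as examples, chosen after their values were seen. Alternatives were the replicate block, only the arrays compared or only FRT/TSHR arrays, each array left out, centring, quantile normalization, leaving out the dimmest 25% of probe sets, an intensity trend, robust eBayes and, for genes and lists, the probe set with the largest SD in place of the brightest.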

Additional observations from a re-analysis of the deposited data

Results flagged for a closer look

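The 7 genes below are among the 41 for which the test of the line difference itself passed in limma with Benjamini-Hochberg adjustment. They are the ones that the naming rule had also taken. All 7 lay below FRTL5, where 16 of the 41 lay above. Genes left out could have a smaller adjusted p, such as Fdps (0.00139, limma). Each value is the FRT/TSHR difference minus the FRTL5 difference at 17 h of TSH, on the log2 scale. Slc5a5, the iodide transporter, stood at -2.58 ± 0.26 (SE, adjusted p = 0.000298). The sterol gene Acat2 stood at -2.83 ± 0.41 (adjusted p = 0.00402), with 1 of 3 FRT/TSHR pairs higher at 17 h, and Hsd17b7 at -1.50 ± 0.24 (adjusted p = 0.00746). The potassium channel gene Kcnj15 stood at -1.69 ± 0.23 (adjusted p = 0.00357), with 0 of 3 FRT/TSHR pairs higher. Tyms stood at -1.21 ± 0.20 (adjusted p = 0.0111), Prim1 at -1.42 ± 0.27 (adjusted p = 0.0233) and Cdk1 at -1.79 ± 0.36 (adjusted p = 0.0306).

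The other probe set of Prim1 had an adjusted p of 0.216, and that of Acat2 one of 0.00402. Slc5a5, Acat2, Hsd17b7 and Kcnj15 kept their call in all 19 alternatives, with adjusted p of at most 0.00674, 0.0175, 0.0268 and 0.0234. Without both FRT/TSHR arrays numbered 1 the adjusted p was 0.0806 for Tyms, 0.128 for Prim1 and 0.181 for Cdk1. Single arrays also ended 2 of the calls. Prim1 had an adjusted p of 0.0618 without FRT/TSHR 17 h replicate 1 or replicate 2, 0.0658 without FRT/TSHR basal replicate 1, 0.0553 without FRT/TSHR basal replicate 3, and 0.052 to 0.0633 without FRTL5 17 h replicate 2, FRTL5 17 h replicate 3 or FRTL5 basal replicate 3. Cdk1 had one of 0.0887 without FRT/TSHR 17 h replicate 1, 0.0732 without FRT/TSHR 17 h replicate 2, 0.0808 without FRT/TSHR basal replicate 1, 0.0615 without FRT/TSHR basal replicate 3, and 0.0566 to 0.0743 without any 1 FRTL5 17 h array or FRTL5 basal replicate 2 or 3. Line, TSH dose and medium differed together in these values and cannot be told apart.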

How the results depend on the processing

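For FRT/TSHR 17 h minus basal, 0 probe sets passed in limma in all 16 alternatives, 6 of which left out 1 array, and the number at an unadjusted p under 0.05 ran from 25 (without both arrays numbered 1) to 337 (replicate block). Of the 114 genes the naming rule took, 0 were called in any alternative, and 94 kept their sign in all, where another probe set entered only if it had the largest SD. Of 57 named genes with other probe sets, 13 had 1 or more on the other side of 0. Of the 30 list medians 12 kept their sign. The replicate block, less clearly warranted in FRTL5 cells, moved the line difference to 365 probe sets and FRTL5 17 h minus basal to 867. The paired fit of only its 6 arrays gave 591 for FRTL5, and the same arrays without the block 96. Leaving out 1 array gave 33 to 83 for the line difference, 152 to 253 for FRTL5 and 0 to 8 for FRT/TSHR 17 h minus 30 min. Without both FRT/TSHR arrays numbered 1, chosen after seeing the data, the line difference had 18, and fewer samples alone lower such a count. The alternatives for FRTL5 and for 17 h minus 30 min, and those without an FRTL5 array, were also added after seeing the data. Where a fit left out 1 array of a group, its other arrays set the level and all arrays the spread. The causes of these shifts were not tested.

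The precision is limited by 3 arrays a group, and signal over background was not measured here.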

Other observations

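Metabolic and translation genes of FRT/TSHR cells, none of which passed, are given as values. Of 34 respiratory chain and ATP synthase genes 15 were higher and 19 lower at 17 h (median -0.04), with Atp5f1d, a subunit of ATP synthase, at 9.47, 9.42 and 9.52 at 17 h against 9.78, 9.77 and 9.60 at basal (-0.25 ± 0.17). Of 27 glycolysis genes 11 were higher (median -0.03). The lactate dehydrogenase gene Ldhb read 8.34, 9.13 and 9.14 at 17 h, against 9.15, 9.24 and 9.32 at basal, and Aldoc, an aldolase, 4.96, 4.96 and 5.05 at 17 h, against 5.09, 5.14 and 5.21 at basal. Both had 17 h arrays below all basal arrays, as had 2.53% of all genes. Their other probe sets had groups that overlapped, at -0.28 ± 0.29 for Ldhb and -0.07 ± 0.13 for Aldoc. Of 32 fatty acid oxidation genes 16 were higher and 16 lower, and Acot2, a mitochondrial thioesterase, read 6.52, 5.25 and 5.61 at 17 h, against 5.16, 5.17 and 5.45 at basal.

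Of 36 ribosomal protein genes 21 were higher (median 0.0067), but by pair the count was 29, 5 and 24 of 36, so that replicate 2 was on the other side, as it was for the chaperones of the endoplasmic reticulum. The translation factor gene Eif4a2 read 10.90, 10.12 and 9.97 at 17 h, against 9.99, 10.17 and 9.39 at basal. Of 40 antioxidant and glutathione genes 22 were higher (median 0.0081), with the heme oxygenase gene Hmox1 at 0.25 ± 0.23. Of 10 clock genes 8 were higher (median 0.09), and the kinase gene Csnk1d read 8.39, 8.45 and 8.42 at 17 h, against 8.09, 8.30 and 8.13 at basal. Its other probe set was lower in all 3 pairs (-0.12 ± 0.11). Of 40 growth factors and receptors 29 were higher (median 0.03), and 7 were higher in all 3 pairs, against 12.3% of all genes. Of 25 MHC class I and interferon genes 12 were higher, with Stat3 at 0.29 ± 0.12 and Stat2 at -0.27 ± 0.20.

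The arrays of replicate 1 stood furthest apart between 17 h and basal. In pair 1 the number of genes at least 1.5-fold apart either way was 278, in pair 2 it was 25 and in pair 3 it was 62, and the SD of the pair difference over 4736 genes was 0.302, 0.194 and 0.202. The median level of the DNA replication list, relative to each gene's mean over the FRT/TSHR arrays, was -0.49, 0.05 and 0.27 at 17 h, -0.41, 0.08 and 0.06 at 30 min and 0.30, 0.15 and 0.14 at basal. Replicate 1 was therefore lowest at both TSH times and highest at basal.

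Under the replicate block the smallest unadjusted p among representative probe sets was that of Ugdh, which makes UDP-glucuronate and is named after its values were seen. It read 8.35, 8.95 and 9.02 at 17 h, against 9.0, 9.31 and 9.33 at basal. All 3 pairs were lower, the groups overlapped, and the difference of -0.44 had an adjusted p of 0.999 in that limma fit. Its other probe set differed by -0.01.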
